A study of Homo sapiens with 18 samples.

Results

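Detroit 562 is an established head and neck squamous cell carcinoma (HNSCC) line that was grown from a metastasis of a pharyngeal tumor, and the data described here are its genome-wide mRNA response to hepatocyte growth factor (HGF). The members are all genes with enough counts in the deposited table, which were 15475 of 19901 genes, measured in 6 of the 18 libraries of the series. The groups were 3 libraries of untreated Detroit 562 cells (control) and 3 libraries of Detroit 562 cells treated with HGF at 50 ng/mL. The other 12 libraries were of the HNSCC lines FaDu and SCC-9, treated in the same way. They shared the filter on counts, the scaling and the estimate of spread with Detroit 562, so they enter its errors and p values. Their own responses are given only where that of Detroit 562 is set against them. The sample records and the methods give 16 h of treatment, whereas the series record gives 48 h. Detroit 562 and FaDu were grown in MEM-α and SCC-9 in a medium with hydrocortisone. Libraries with the same replicate number were compared as pairs. The error given is that of the HGF effect once the differences between repeats of the culture are taken out, with a spread estimated from all 18 libraries. All libraries of a group come from 1 cell line, so it is not an error between tumors.

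HGF is a growth factor that is mostly made by cells of the connective tissue and binds the receptor tyrosine kinase MET on epithelial cells. Active MET signals through RAS and the ERK kinases, through PI3 kinase and through STAT3, and ERK signaling in turn induces its own inhibitors, among them the dual-specificity phosphatases and the Sprouty proteins. In epithelial cells HGF is known for scattering of colonies, cell movement, invasion through the extracellular matrix and branching of ducts. Squamous cells of the throat normally mature by losing the basal keratins and by making the proteins of the cornified envelope, and they carry enzymes for retinoid metabolism and detoxification.

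Total counts on genes ranged from 37431702 to 42879349 in the control and from 35304770 to 42964310 in the HGF libraries. Levels are given as TMM-normalized counts per 1000000 (CPM), which compare a gene between libraries and not genes with each other. The squamous epithelial markers had a sum over 10 markers of 4154 to 5501 CPM in control and 3594 to 5080 CPM in HGF libraries. Their levels were uneven. Over the 6 libraries KRT5 had 593 to 2576 CPM and S100A2 650 to 1222 CPM, but DSG3 had 2.04 to 9.78 CPM and KRT14 only 0.852 to 1.43 CPM. By the rule for a call given below, 1 of the 10 rose and 3 fell. Lists of markers for other cell types held genes at or near 0 and genes that were expressed. The fibroblast markers COL3A1, DCN, LUM and PDGFRB, the leukocyte markers PTPRC, CD3E, CD14 and LYZ, the endothelial markers PECAM1, CDH5 and KDR and the mesothelial markers WT1 and CALB2 had at most 15 counts in every Detroit 562 library. Of the other markers, COL1A1 and COL1A2 had 10.8 to 21.3 and 4.14 to 32.9 CPM, CD68, a lysosomal protein of macrophages, 20.2 to 56.0 CPM, VWF 0.304 to 2.36 CPM, and MSLN and UPK3B 11.3 to 15.6 and 4.2 to 15.8 CPM. The sum over the list was 29.8 to 54.3 CPM in control and 15 to 27.6 CPM in HGF libraries for fibroblasts, 20.4 to 40.6 and 37.4 to 56.3 CPM for leukocytes, 1.21 to 2.99 and 0.639 to 1.16 CPM for endothelium and 25.3 to 30.1 and 15.6 to 20.3 CPM for mesothelium, and the part of such cells in the results was not tested. The mRNA of HGF itself had 0 to 3 counts per library. MET had 774, 769 and 837 CPM in control 1, 2 and 3 and 786, 853 and 1010 CPM in HGF 1, 2 and 3. Its log2 fold change of 0.15 ± 0.05 (SE) had an adjusted p of 0.0273 but was below the minimum change used for a call. Library 3 of both groups stood apart from libraries 1 and 2 in many genes, which the comparison within pairs takes into account.

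HGF changed the mRNA level of 3327 genes, 21.5% of those tested. Of these, 1104 genes (7.13%) rose and 2223 genes (14.4%) fell. A gene was called when the adjusted p of edgeR's quasi-likelihood test was below 0.1 and the log2 fold change at least 0.4 in size. Without the replicate number in the model 954 genes (6.16%) rose and 1812 (11.7%) fell, and 2756 genes were called in the same direction in both fits. Among the called genes, 3249 moved the same way in all 3 pairs, as did 63.7% of all genes tested. In 892 of the genes called up all 3 HGF libraries lay above all 3 control libraries, and in 1751 of the genes called down all lay below, whereas such a gap up or down was found in 18% and 20% of all genes tested. Whether fewer cells of a kind or less mRNA per cell lay behind a lower level cannot be told apart in such bulk libraries.

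Falls were more frequent than rises and also larger. The median log2 fold change was 0.58 among genes called up and -0.71 among genes called down, while the median over all genes tested was -0.01. A log2 change of at least 1 in size was reached by 209 genes that rose and 598 that fell, and a change of at least 3 by 17 and 21 genes. Genes that fell had a lower level, with a median of 6.75 CPM over the 6 libraries, than genes that rose, with a median of 19.8 CPM. When the genes tested were divided into 4 bins of like size by mean level, the share called down was 21.8% and 20.7% in the lowest and second bin and 7.94% and 7.03% in the third and highest. The share called up was between 6.18% and 7.60% in every bin. Genes called up held 71385 CPM in control and 110235 CPM after HGF, and genes called down held 103915 and 63929 CPM. Near the detection limit fitted changes are uncertain, and 14 called genes had 0 counts in every control library and 8 had 0 counts in every HGF library. The genes named as the largest rises and falls over all genes tested therefore had a mean of at least 5 CPM. This minimum was reached by 797 of the genes called up and 1240 of those called down. Members of gene lists were named without such a minimum. For example, CIITA, CDKN1C and GBP2 had means of 1.73, 1.78 and 3.78 CPM over the 6 libraries.

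**Figure D1:**
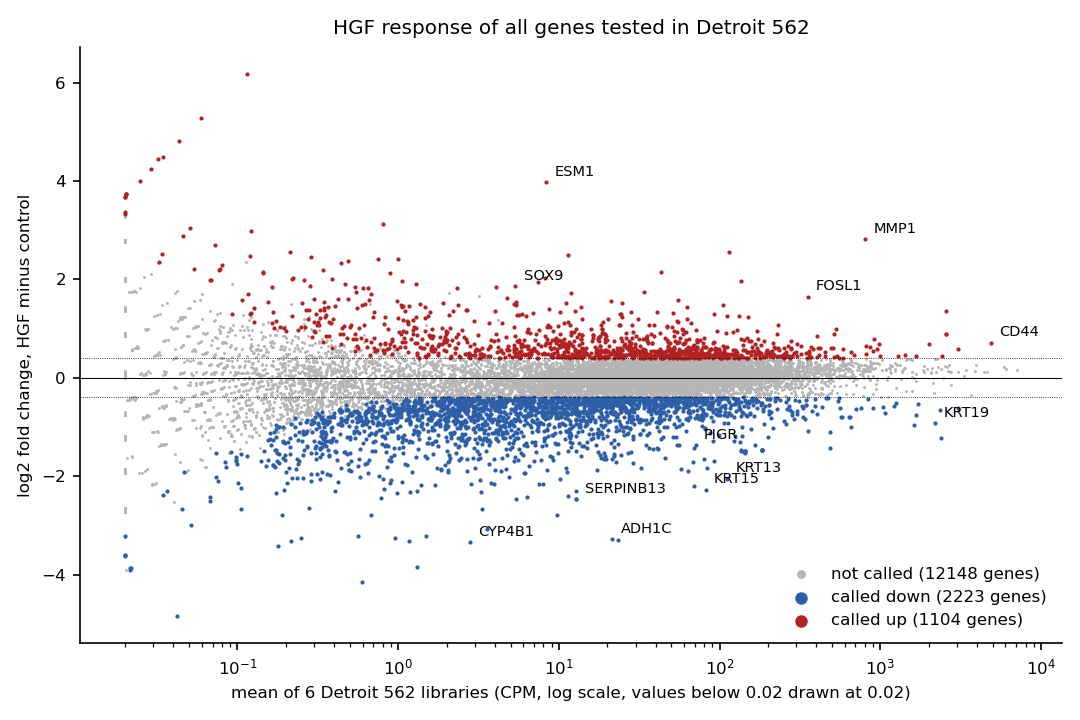
Fitted log2 fold change of each gene tested (HGF minus control, vertical axis) against its mean over the 6 Detroit 562 libraries in CPM (horizontal axis, log scale), with 1104 genes called up in red, 2223 called down in blue and genes not called in grey. Dotted lines mark a log2 change of 0.4 in either direction, and genes that fell lie further to the left than genes that rose.

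ESM1, which codes for the endothelial proteoglycan endocan, had 0.283, 0.489 and 2.29 CPM in control 1, 2 and 3 and 7.89, 5.48 and 33.5 CPM in HGF 1, 2 and 3. Its libraries did not overlap, and the log2 fold change was 3.97 ± 0.21 (SE, adjusted p = 1.23e-08). MMP1, the interstitial collagenase, rose from 153, 136 and 275 CPM to 1006, 842 and 2391 CPM. Its pair log2 ratios were 2.72, 2.63 and 3.12, and the log2 fold change was 2.82 ± 0.10 (adjusted p = 8.80e-10). The neurotensin receptor NTSR1 had a log2 fold change of 2.49, the semaphorin SEMA7A of 2.04, the chondrocyte and stem cell transcription factor SOX9 of 1.87, the anthrax toxin receptor ANTXR2 of 1.73 and the adaptor protein SH2D5 of 1.73. IL1RL1, the receptor of interleukin 33, and its neighbor IL18R1 rose by a log2 of 2.55 and 1.96. These neighbors overlap on the same strand, so reads in the overlap were counted for both and their rises are not independent. Among the genes named in the following, AXIN2, C3, CD59, CFB, CTSD, ERBB3, ETV5, GBP2, MUC1, MT-ND4, SULT1E1, TIMP2 and UTP4 also overlap another gene on their strand.

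Among the largest falls, the overlapping alcohol dehydrogenase genes ADH1B and ADH1C fell by 3.31 and 3.28 on the log2 scale, and ADH1C had 55.3, 46.4 and 15.2 CPM in control and 4.03, 6.61 and 1.52 CPM in HGF libraries. PRODH, which begins the breakdown of proline, had 22.8, 19.1 and 9.05 CPM in control and 3.41, 2.67 and 1.31 CPM after HGF, with a log2 fold change of -2.79 ± 0.14 (adjusted p = 7.97e-09). SERPINB13, a protease inhibitor of squamous epithelium, fell from 32, 23.3 and 9.56 to between 1.2 and 5.42 CPM. GABRP, a subunit of the GABA-A receptor found in epithelia, fell from 114, 136 and 87.8 to 21.1, 36.8 and 18 CPM, a log2 fold change of -2.19 ± 0.09 (adjusted p = 3.00e-09). The control and HGF libraries of these genes did not overlap. Endothelin 2 (EDN2) had a log2 fold change of -2.47, the phosphate transporter SLC34A2 of -2.43, the sphingolipid synthesis subunit SPTSSB of -2.41, the immune checkpoint ligand VTCN1 of -2.30, the basal keratin KRT15 of -2.28, BCAS1 of -2.47 and MPPED2 of -2.16. 

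**Figure D2:**
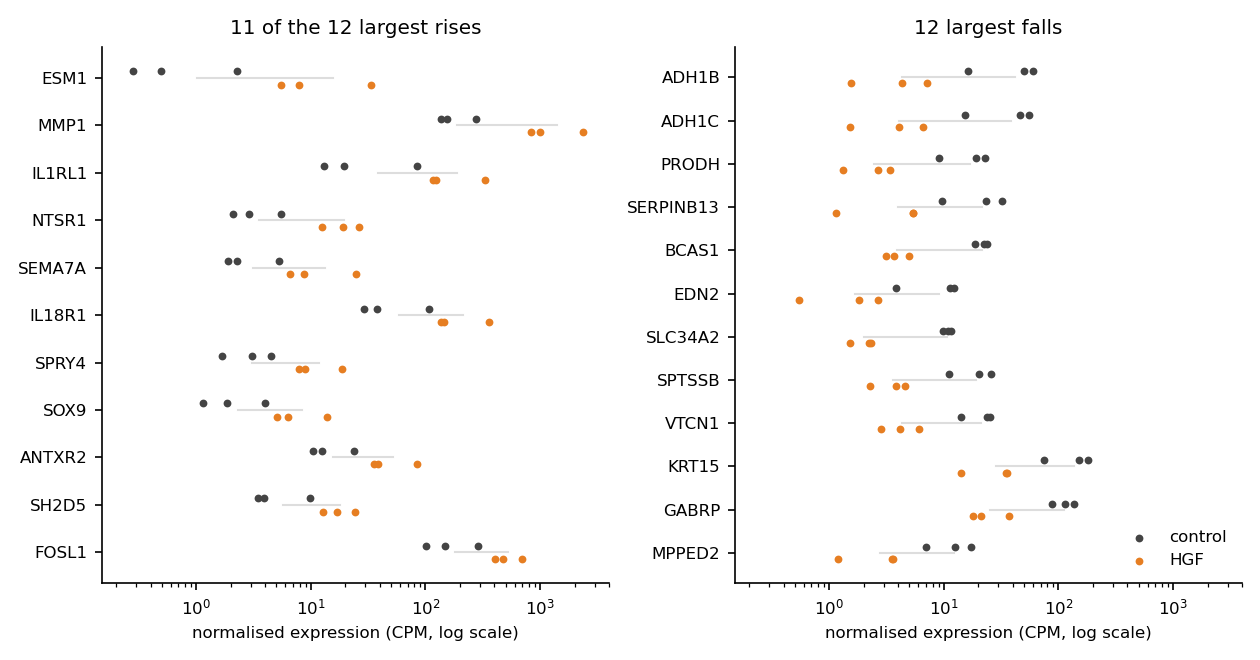
Normalised level in CPM (horizontal axes, log scale) of 11 of the 12 genes with the largest rise (left) and the 12 with the largest fall (right) among called genes with a mean of at least 5 CPM that moved the same way in all 3 pairs. Each point is 1 library, control in dark grey and HGF in orange, and grey lines join the group means. Control and HGF libraries are apart in the genes on the right, while the highest control library of some genes on the left comes close to the lowest HGF library.

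Other genes stood out for the small error of their change. ITGA5, the α chain of the fibronectin receptor, rose from 22, 22 and 31.4 to 46.5, 43.8 and 68.3 CPM (1.07 ± 0.06, adjusted p = 1.03e-08). CLMP, an adhesion molecule of epithelial junctions, had pair log2 ratios of 1.71, 1.54 and 1.43, the acyltransferase MBOAT2 of 0.86, 1.05 and 0.89 and the actin-binding protein RAI14 of 1.03, 0.93 and 0.90. On the falling side, PIGR, which carries immunoglobulin A across epithelia, went from 117, 132 and 56.4 to 42.6, 59 and 19.6 CPM (-1.37 ± 0.07, adjusted p = 6.81e-09). DTX4, a ubiquitin ligase of the Notch pathway, had pair log2 ratios of -1.80, -1.78 and -1.90, and TRIM29, a protein of squamous epithelium, of -1.41, -1.27 and -1.23. The pairs of these 7 genes lay close together and on the same side of 0, which their choice by a small error favors.

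The largest gains in mean CPM included those of CD44, CD59, MMP1 and HSPA8, and the largest losses were KRT4, KRT19, KRT5, KRT8, MT-CO1 and MT-ND4. CD44, the hyaluronan receptor that also serves as a MET co-receptor in some of its splice forms, went from 3087, 3310 and 4818 to 5728, 5703 and 6635 CPM. CD59, an inhibitor of complement, rose by 0.90 on the log2 scale. HSPA8, the constitutive HSC70 chaperone, rose by 0.58. KRT19 went from 3456, 3049 and 2027 CPM in control to 1851, 1751 and 963 CPM in HGF libraries, a log2 fold change of -0.93 ± 0.08 (adjusted p = 4.04e-07).

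Of 35 targets and feedback inhibitors of the ERK pathway tested, 18 rose and 5 fell, and their median log2 fold change was 0.43 against -0.01 over all genes. The counts are 51.4% and 14.3% of the list. Over all genes tested 7.13% rose and 14.4% fell, and the counts of this and the following lists are to be read beside these shares. Without the replicate block 1 gene of the list fell. Among the phosphatases that inactivate ERK and related kinases, DUSP6 went from 5.99, 5.43 and 5.66 to 17.7, 13.1 and 18.5 CPM (1.52 ± 0.12, adjusted p = 1.88e-07). The phosphatases DUSP4, DUSP5 and DUSP7 rose by 1.13, 0.80 and 0.92. Of the Sprouty and SPRED inhibitors of RAS signaling, SPRY4 had 1.67, 3.04 and 4.5 CPM in control and 8.91, 7.92 and 18.6 CPM in HGF libraries, SPRY2 rose by 0.99 and SPRED3 by 1.96. Among transcription factors of the pathway, the AP-1 subunit FOSL1 went from 100.5, 148 and 291 to 479, 402 and 700.1 CPM (1.65 ± 0.14, adjusted p = 6.36e-07), and the ETS factors ETV5 and ETV4 rose by 1.37 and 0.80. PHLDA1, a further ERK target, rose by 1.57. Of 14 genes of the EGF receptor family and its ligands, 4 rose and 5 fell, with a median of -0.07. The ligands HBEGF, TGFA and AREG rose by 1.55, 0.97 and 0.81, but other ligands of the list fell. The receptor genes ERBB2 and ERBB3 fell by 0.55 and 0.54.

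The immediate early genes FOS, FOSB and EGR1, which serum and growth factors induce within minutes and which then decline, were lower in HGF libraries in all 3 pairs but with large differences between them. FOS had 262, 9.34 and 31.4 CPM in control and 99, 3.66 and 5.08 CPM in HGF libraries, and its pair log2 ratios were -1.40, -1.34 and -2.62. FOSB ratios were -1.82, -0.23 and -1.54, and EGR1 ratios were -0.23, -0.83 and -1.19. These genes were called down with the replicate block (adjusted p = 3.04e-06, 2.84e-06 and 1.47e-04) and not without it (adjusted p = 0.404, 0.282 and 0.632). FOSB was also, with CCNG2, SERPINB2 and its overlapping neighbor SERPINB10, among the called genes whose pairs differed most. SERPINB2, an inhibitor of the urokinase-type plasminogen activator, had pair log2 ratios of -1.73, -1.21 and 0.12, and CCNG2, cyclin G2, had -1.34, -0.78 and 0.43. SERPINB2 and CCNG2 were not called without pair 1 (log2 fold changes of -0.53 and -0.14), and CCNG2 not without pair 2 or without the block either.

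**Figure D3:**
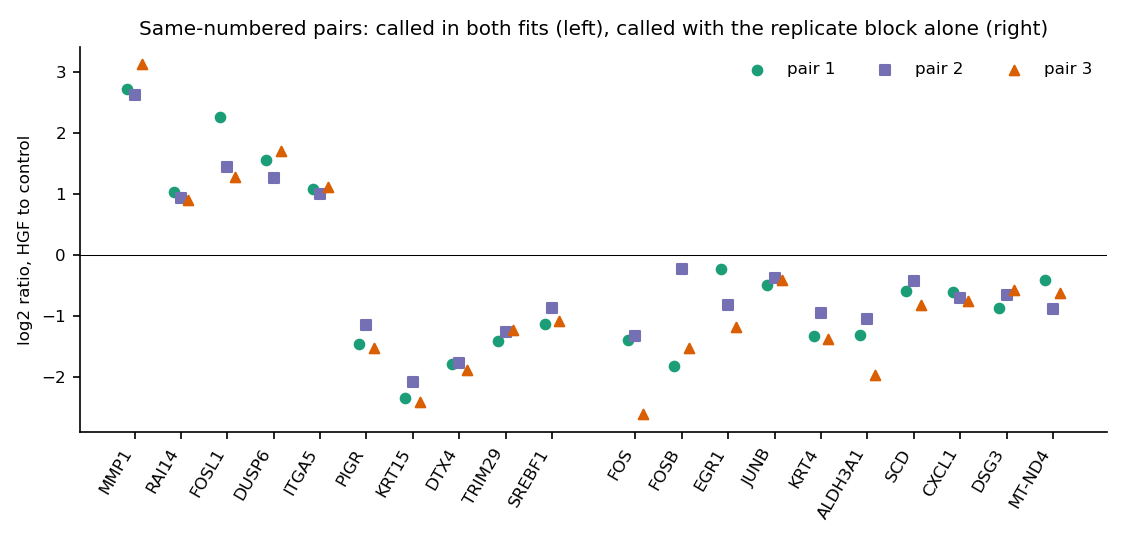
Log2 ratio of HGF to control (vertical axis) in each of the 3 same-numbered pairs, for 10 genes called with and without the replicate block (left) and 10 genes called with the block alone (right), which were picked after their values had been seen. The pairs of ITGA5, RAI14 and DTX4 lie close together, whereas those of FOS, FOSB and EGR1 are spread widely on the same side of 0.

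Genes for the breakdown of the matrix and for adhesion to it moved in both directions. Of 32 genes of extracellular proteolysis, 13 rose and 10 fell. Beside MMP1, PLAUR, the urokinase receptor, went from 9.19, 9.91 and 17.8 to 26.1, 20.4 and 37.4 CPM (1.20 ± 0.09, adjusted p = 1.87e-07), and the membrane proteases ADAM8 and ADAM12 rose by 0.89 and 0.88. The gelatinase MMP2 rose by 0.66. The collagenase MMP13, a neighbor of MMP1 in the same gene cluster, instead went from 166, 162 and 96.7 to 56.6, 49 and 27.4 CPM (-1.69 ± 0.10, adjusted p = 2.40e-08). TIMP2, an inhibitor of metalloproteinases, fell by 0.69, and the lysosomal protease cathepsin D (CTSD) by 0.79. Of 9 type II transmembrane serine proteases tested, 6 fell and 0 rose. Among them TMPRSS2 fell by 1.07 and TMPRSS13, which can activate HGF, by 1.88.

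Of 29 integrin and focal adhesion genes, 8 rose and 2 fell. In addition to ITGA5, the integrin chains ITGB5, ITGA6, ITGA2 and ITGB1 rose by 0.72, 0.69, 0.61 and 0.49. The matrix list of 30 genes had 8 rises, among them tenascin C (TNC, 0.92), the laminin-332 chain LAMA3 (0.58) and COL17A1 of the hemidesmosome (0.54), and 5 falls, among them the anchoring fibril collagen COL7A1 (-0.91). The matrix rises and falls are 26.7% and 16.7% of their list, beside 7.13% and 14.4% of all genes tested. Of 33 genes of the actin cytoskeleton, 8 rose and 3 fell (1 without pair 1). Fascin (FSCN1), which bundles actin in filopodia, went from 335, 326 and 398 to 861, 645 and 623 CPM, a log2 fold change of 1.00 ± 0.10 (adjusted p = 1.89e-06), and TAGLN and MYO10 rose by 1.19 and 0.65. 

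Of 28 desmosome, adherens and tight junction genes, 11 fell and 0 rose, with a median log2 fold change of -0.27. E-cadherin (CDH1) went from 334, 307 and 266 to 210.5, 220.5 and 213 CPM (-0.49 ± 0.06, adjusted p = 3.03e-05), and without pair 1 its log2 fold change was -0.40, just under the minimum for a call. The tight junction proteins TJP3 and CLDN1 fell by 1.84 and 1.02, and claudin 4 (CLDN4) by 0.77. Of 20 regulators and markers of epithelial-mesenchymal transition, 3 rose (5 without pair 2) and 4 fell. The risers were the transcription factors TWIST1, TWIST2 and SNAI2, with log2 fold changes of 0.61 (0.40 without pair 1), 0.82 and 0.54, and the fallers CDH1, GRHL1, GRHL3 and ELF3, of which GRHL3 and ELF3 are epithelial transcription factors with log2 fold changes of -1.66 and -1.47. Vimentin (VIM) had a mean of 0.14 CPM in control and 0.253 CPM in HGF libraries and was not called (adjusted p = 0.148), although without pair 2 it was, with a log2 fold change of 1.52 at these low counts. ZEB2 and SNAI1 were also below 1 CPM and not called.

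Of 34 genes of terminal differentiation, 14 fell and 2 rose, and their median log2 fold change was -0.35. With each pair left out in turn 14 to 15 fell and 1 to 4 rose, and the median lay between -0.52 (without pair 1) and -0.16 (without pair 2). Involucrin (IVL), an early protein of the cornified envelope, had 22, 21.8 and 12.8 CPM in control and 7.47, 8.66 and 4.29 CPM in HGF libraries (-1.48 ± 0.13, adjusted p = 8.91e-07). TGM1, the transglutaminase that crosslinks the envelope, fell by 1.84, LY6D by 1.57 and ZNF750, a transcription factor of epidermal differentiation, by 2.17. KRT13, the keratin of upper layers of mucosal squamous epithelium, went from 228, 205 and 103 to 51.6, 58.6 and 22.2 CPM (-2.05 ± 0.15, adjusted p = 1.15e-07). The p63 gene TP63, which marks the squamous lineage, fell by less than the minimum for a call (-0.37 ± 0.05, adjusted p = 2.96e-05).

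Of 42 keratin genes tested, 27 fell and 0 rose, with a median of -0.81. KRT5, KRT8 and KRT15 fell by 0.97, 0.76 and 2.28. KRT4, a mucosal keratin, went from 3765, 3828 and 2322 to 1493, 1982 and 887 CPM and was called with the replicate block (adjusted p = 7.73e-06) and not without it (adjusted p = 0.156). Many of the other keratin falls were of genes with few counts whose changes were alike. In 8 type II keratins (KRT1, KRT2, KRT3, KRT72, KRT73, KRT76, KRT77 and KRT79), with 39 to 392 counts per library, there were between 0.745 and 2.66 counts for every 1000 counts of KRT4 in each of the 6 libraries, and their log2 fold changes lay between -1.29 and -1.08 beside -1.22 for KRT4. Keratin genes resemble each other in sequence, and whether reads of these 8 genes are shared with KRT4 was not tested. KRT17 and KRT18 were not called, with log2 fold changes of 0.09 and -0.27. The fall of KRT18 had an adjusted p of 0.0264 but was below the minimum for a call.

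Of 23 mucins and mucosal defence genes, 17 fell and 0 rose, and the median log2 fold change was -0.65. The membrane mucins MUC1, MUC4, MUC16 and MUC20 fell by 1.29, 1.09, 1.25 and 1.29. MUC1 had 203, 182 and 141 CPM in control and 88.4, 68.6 and 58.2 CPM after HGF, so that its groups did not overlap. AGR2, which folds mucins in the endoplasmic reticulum, went from 259.6, 278 and 174 to 86.2, 122 and 68.5 CPM (-1.37 ± 0.09, adjusted p = 3.89e-08). The protease inhibitor SLPI fell by 0.57, and the calprotectin subunit S100A8 by 1.04.

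**Figure D4:**
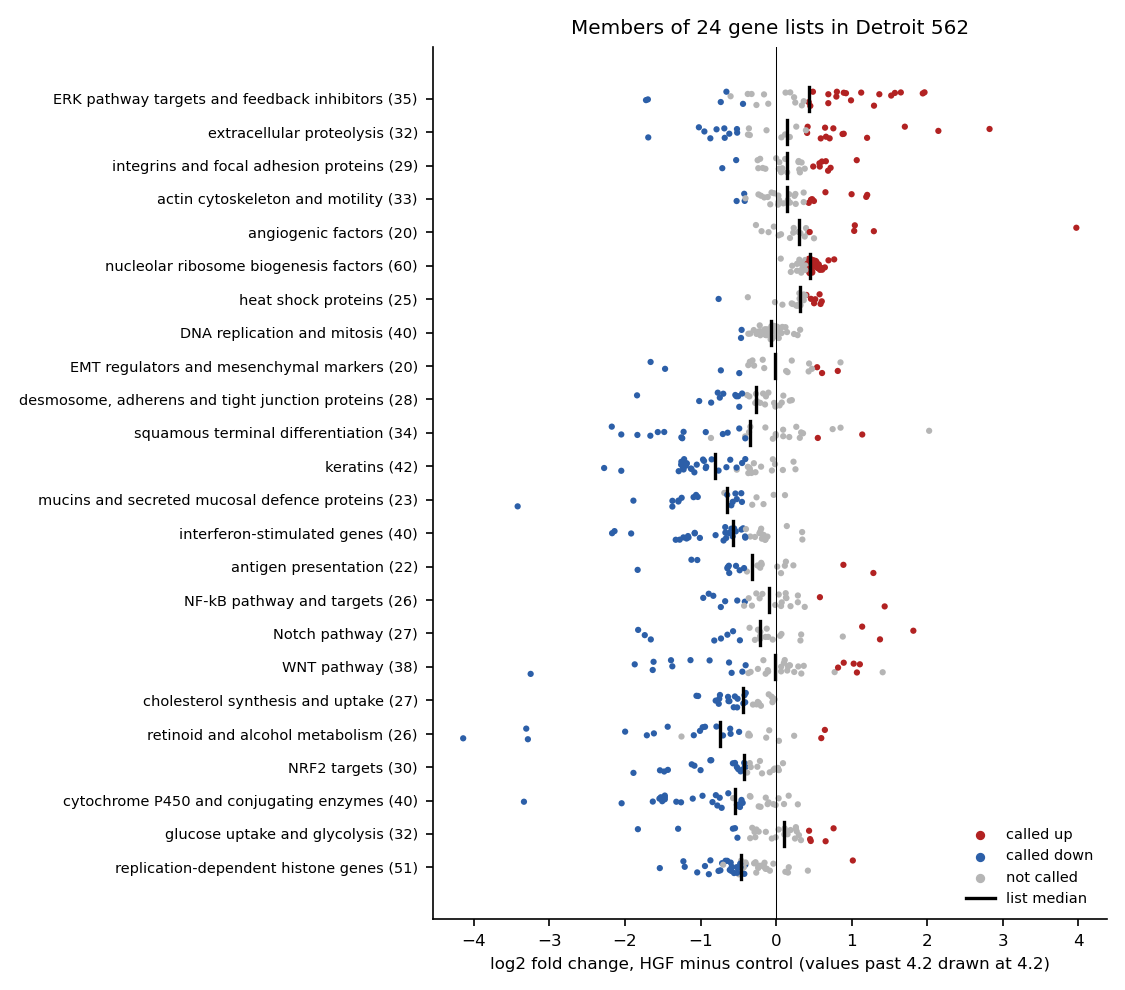
Log2 fold change (HGF minus control, horizontal axis) of the members of 24 gene lists, with the number of members tested in parentheses. Each point is 1 gene, red where called up, blue where called down and grey where not called, and black bars mark list medians, which run from -0.81 for the keratins to 0.44 for nucleolar ribosome biogenesis factors.

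Of 60 nucleolar factors that cut, modify and assemble ribosomal RNA, 43 rose and 0 fell, which is 71.7% of the list beside 7.13% of all genes tested, and the median log2 fold change was 0.44. Without pair 1 the count was 30 and the median 0.40, and without the other pairs 43 to 47 rose. The largest rise was that of RRP9, a protein of the U3 ribonucleoprotein, from 29, 31.5 and 44.1 CPM in control to 60.6, 53.4 and 61.8 CPM in HGF libraries (0.77 ± 0.08, adjusted p = 5.11e-06). NIP7 and the RNA helicase DDX21 rose by 0.65 and 0.61, POLR1B, a subunit of RNA polymerase I, by 0.55, and nucleophosmin (NPM1), an abundant protein of the nucleolus, by 0.45. MYC, which is known to drive such genes, went from 85.3, 101 and 105 to 123, 128 and 142 CPM (0.43 ± 0.05, adjusted p = 5.28e-06). Without pair 1 the change of MYC was 0.38, under the minimum for a call. Its target ODC1, which codes for the first enzyme of polyamine synthesis, rose by 0.98. In contrast, 2 of 83 cytosolic ribosomal protein genes and 1 of 77 mitochondrial ones were called up, with medians of 0.20 and 0.16. Most of these changes were below the minimum log2 change of 0.4.

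The promoters of the ribosome biogenesis genes are shown because a match of the E-box CACGTG, the motif bound by MYC and its partner MAX, was often found in them. RefSeq promoters (GRCh38.p14), which run from 250 bases before to 50 bases after the start of the gene, were at hand for 51 of the 60 genes. CACGTG, which reads the same on both strands, was found in 21 of the 51 promoters (41.2%), compared with 9.86% of 11486 promoters, which covered 74.3% of the genes tested. Of the 35 promoters of genes called up 17 held it, and 4 of the 16 of genes not called. The motif lay close to the start, since 20 of its 24 matches (83.3%) were within 50 bases of it, compared with 37.1% of the matches in all promoters. The ETS motif CCGGAAG, searched on both strands, was found in 21 of the 51 promoters (41.2%) and in 17.2% of all. A match describes the letters of the window and is not evidence of binding. The 6 called genes with the largest rises among those with the motif in the stretch shown follow, each from 100 bases before to 30 bases after the start, 5′ to 3′ on the strand of the gene, with the motif in capitals.
RRP9: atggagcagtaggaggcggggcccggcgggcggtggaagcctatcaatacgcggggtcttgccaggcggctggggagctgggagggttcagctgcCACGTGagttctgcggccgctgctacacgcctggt
PWP2: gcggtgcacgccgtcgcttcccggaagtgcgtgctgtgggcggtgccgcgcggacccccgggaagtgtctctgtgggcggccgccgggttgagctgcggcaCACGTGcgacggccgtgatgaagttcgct
PNO1: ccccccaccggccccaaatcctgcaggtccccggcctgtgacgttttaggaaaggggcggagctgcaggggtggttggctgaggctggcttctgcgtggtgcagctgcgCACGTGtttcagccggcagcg
UTP4: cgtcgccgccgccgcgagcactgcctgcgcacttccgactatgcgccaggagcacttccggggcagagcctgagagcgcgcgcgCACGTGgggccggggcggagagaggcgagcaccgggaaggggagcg
MRTO4: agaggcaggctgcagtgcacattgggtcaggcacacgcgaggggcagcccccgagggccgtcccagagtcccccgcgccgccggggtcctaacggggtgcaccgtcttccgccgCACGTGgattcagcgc
NOC3L: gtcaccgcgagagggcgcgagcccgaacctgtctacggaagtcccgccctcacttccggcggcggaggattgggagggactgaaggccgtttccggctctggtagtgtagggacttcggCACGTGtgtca
These stretches lie at chr3:51941875-51942004 on the minus strand (RRP9), chr21:44107299-44107428 on the plus strand (PWP2), chr2:68157788-68157917 on the plus strand (PNO1), chr16:69132549-69132678 on the plus strand (UTP4), chr1:19251705-19251834 on the plus strand (MRTO4) and chr10:94362910-94363039 on the minus strand (NOC3L).

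Of 25 heat shock proteins, 7 rose, among them FKBP4 (0.60) and HSPH1 (0.52), and the small heat shock protein HSPB1 fell by 0.76. Of 40 genes of DNA replication and mitosis 0 rose and 2 fell, with a median of -0.06. The fallers were KIF20A and CENPF, with log2 fold changes of -0.46 and -0.46, the latter -0.30 without pair 1. Of 51 replication-dependent histone genes, 25 fell and 1 rose (0 without the replicate block). The mRNA was captured with oligo-dT, which binds histone mRNA only where it carries a poly(A) tail, and several histone genes are copies of each other. The CDK inhibitor CDKN1A (p21) rose by 0.57, or 0.37 without pair 3, whereas CDKN1C and CDKN2C fell by 1.17 and 0.83.

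Many interferon-stimulated genes fell. Of 40 genes tested, 26 fell and 0 rose, with a median log2 fold change of -0.56. Without the replicate block 19 fell. The transcription factor IRF1 went from 68.6, 65.7 and 46.6 to 33.2, 35 and 22 CPM (-1.01 ± 0.05, adjusted p = 1.55e-08). Guanylate-binding protein GBP2 fell by 2.14, XAF1 by 2.17, and the antiviral proteins MX1, OAS2 and SAMD9L by 1.08, 1.23 and 1.08. Of 22 genes of antigen presentation, 10 fell, among them the immunoproteasome subunit PSMB9 (-1.04) and the MHC class II activator CIITA (-1.83). The 2 genes of this list that rose were the ligands of the checkpoint receptor PD-1. CD274 (PD-L1) went from 10.4, 10.2 and 20.0 to 22.4, 20.9 and 62.8 CPM (1.29 ± 0.14, adjusted p = 3.63e-06), and PDCD1LG2 (PD-L2), with a control mean of 1.38 CPM, rose by 0.89. Among NF-kB targets the inhibitor TNFAIP3 (A20) rose by 1.44 and complement factors CFB and C3 fell by 0.89 and 0.67. Of the cytokines, IL1A went from 0.825, 1.22 and 0.915 to 2.9, 1.65 and 6.36 CPM (1.83 ± 0.27, adjusted p = 7.87e-05, or 1.18 without pair 3), IL1RN, the antagonist at the same receptor, fell by 0.95, and the death ligand TNFSF10 (TRAIL) by 1.50.

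Several groups of metabolic genes had more falls than rises. Of 27 genes of cholesterol synthesis and uptake, 17 fell and 0 rose, with a median of -0.43. The sterol-regulated transcription factor SREBF1 went from 280.4, 220.2 and 134 to 128, 119.8 and 63.2 CPM (-1.03 ± 0.05, adjusted p = 7.97e-09), and SREBF2, INSIG1 and HMGCS1 fell by 0.75, 1.05 and 0.76. Of 26 genes of retinoid and alcohol metabolism 16 fell and 2 rose (1 without pair 1), and the median of -0.75 was among the lowest. The retinoic acid binding protein CRABP2 went from 102, 100.2 and 49.4 to 48.2, 49.7 and 21.8 CPM (-1.09 ± 0.06, adjusted p = 3.00e-08), ALDH1A1 and ALDH1A3, which make retinoic acid, fell by 1.71 and 0.61, and the retinoid receptors RARB and RARG fell by 2.00 and 0.70.

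Of 30 targets of NRF2, the transcription factor of the oxidative stress response, 18 fell and 0 rose. Glutathione synthesis enzyme GCLC went from 617, 546 and 296 to 251, 268 and 157 CPM (-1.08 ± 0.07, adjusted p = 8.81e-08). AKR1B10 fell by 1.89, and AKR1C1, AKR1C2 and AKR1C3, which are close in sequence, by 1.48, 1.54 and 1.43. NRF2 itself (NFE2L2) fell by 0.47. Of 40 cytochrome P450 and conjugating enzymes, 26 fell and 0 rose. CYP4B1 fell from 6.6, 6.19 and 2.4 to 0.421, 0.681 and 0.396 CPM, and CYP1B1, SULT1E1 and CYP4F3 fell by 0.97, 1.32 and 1.52. Several UGT1A genes in this list are nested in each other, so their counts are not independent, and 15 genes of the list fell when genes that overlap on the same strand were left out.

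In glucose metabolism 5 of 32 genes rose (3 without pair 1) and 5 fell, with a median of 0.11. Each count is 15.6% of the list, beside 7.13% of all genes tested that rose and 14.4% that fell. Hexokinase 2 (HK2) went from 44.2, 50.2 and 64.5 to 72.7, 75.2 and 102 CPM (0.66 ± 0.05, adjusted p = 2.76e-07), and the lactate dehydrogenase chain LDHA, the lactate transporter SLC16A1 and the phosphofructokinase PFKP rose by 0.44, 0.46 and 0.45. Without pair 1 LDHA and PFKP, at 0.39 and 0.36, were under the minimum for a call. The pentose phosphate enzymes PGD and TKT fell by 0.54 and 0.51, and FBP1 of gluconeogenesis fell by 1.30. Among prostaglandin enzymes PTGS2 rose by 1.29 and PTGS1 fell by 1.53. PTGS2 had 34.9, 39.1 and 88.6 CPM in control and 94.2, 90.4 and 209 CPM in HGF libraries.

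Of the 13 genes encoded in the mitochondrial genome, 10 were called down, and the median over the 13 was -0.58 on the log2 scale. They took 1.46%, 1.54% and 1.90% of the normalized counts in control 1, 2 and 3 and 1.13%, 0.88% and 1.28% in HGF 1, 2 and 3, so that the groups did not overlap. MT-CO1 had 3301, 3567 and 4144 CPM in control and 2376, 2115 and 2711 CPM in HGF libraries. Without the replicate block only MT-CO1 was called (adjusted p = 0.0763), and the other called genes had adjusted p values of up to 0.236. MT-ND4 was also not called without pair 2 (adjusted p = 0.133). Of 47 nuclear genes of complex I, 0 were called down and 2 up, with a median of -0.03.

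Signaling pathways of development moved in part. Of 27 Notch pathway genes, 8 fell and 3 rose. NOTCH3 went from 147, 141 and 72.4 to 48.8, 54.2 and 16.9 CPM (-1.66 ± 0.12, adjusted p = 9.28e-08), and the target HES1 fell by 0.57. Of 38 WNT pathway genes, 12 fell and 5 rose. The ligand WNT5A went from 84.7, 84.5 and 37.6 to 24.2, 28.8 and 13.5 CPM (-1.62 ± 0.09, adjusted p = 1.31e-08), WNT10A fell by 1.37 and AXIN2, a standard WNT target, by 1.63, whereas WNT7A and WNT10B rose by 1.07 and 0.82. In the TGF-beta and BMP list of 34 genes 6 rose, among them TGFB1 (0.76) and SMURF2 (0.58), and 10 fell with the replicate block, compared with 4 without it and 6 without pair 3. SMAD6 fell by 0.78. Among other receptor tyrosine kinases FGFR1 rose by 1.33 and AXL by 0.66, and FGFR3 fell from 237, 213 and 116 to 113, 101 and 43.7 CPM (-1.18 ± 0.07, adjusted p = 3.79e-08). FGFR2, KIT and DDR1 fell by 0.81, 1.26 and 0.80. 

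Some further families are given for their counts. Of 46 cilia and flagella associated genes, 12 fell and 1 rose, with a median of -0.29, and the intraflagellar transport genes IFT172 and IFT140 fell by 0.75 and 0.70. The 18 protocadherin genes that fell, of 62 tested, largely share exons with their neighbors. In this family 9 genes were called down without the replicate block, 8 without pair 1 and 2 when genes that overlap on the same strand were left out.

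The response of Detroit 562 was then set against that of the other lines by the difference of the fitted log2 fold changes. The difference from FaDu passed an adjusted p of 0.1 in 2956 genes (19.1% of those tested) and that from SCC-9 in 4170 genes (26.9%). Of the genes called in Detroit 562, 1579 differed from FaDu and 2167 from SCC-9, and 1354 differed from both. Without the replicate block the difference from FaDu passed in 37 of all genes tested and that from SCC-9 in 143. Detroit 562 was compared with both lines by the same libraries, so the counts are not independent.

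The genes with the smallest adjusted p for a difference show its size. MMP1 rose by 2.82 in Detroit 562 and 0.63 in FaDu, a difference of 2.19 (adjusted p = 6.69e-06). CHST11, a chondroitin sulfotransferase, and MARCKSL1, a membrane protein that binds actin, rose by 1.14 and 1.08 in Detroit 562, compared with -0.18 and -0.09 in FaDu. The water and glycerol channel AQP3 and the mRNA decay factor ZFP36L2 fell by 0.73 and 0.94 in Detroit 562, with values of 0.15 and 0.28 in FaDu. CLMP, GNE, which makes the precursor of sialic acid, SREBF1 and DTX4 had differences from SCC-9 of 1.40, -1.25, -0.97 and -1.47. Without the replicate block the adjusted p of the difference was 0.0893 for MMP1, 0.0314 for MARCKSL1, 0.0256 for CLMP and 0.0534 for DTX4, and it missed the threshold for CHST11 (0.205), AQP3 (0.281), ZFP36L2 (0.107), GNE (0.118) and SREBF1 (0.243).

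**Figure D5:**
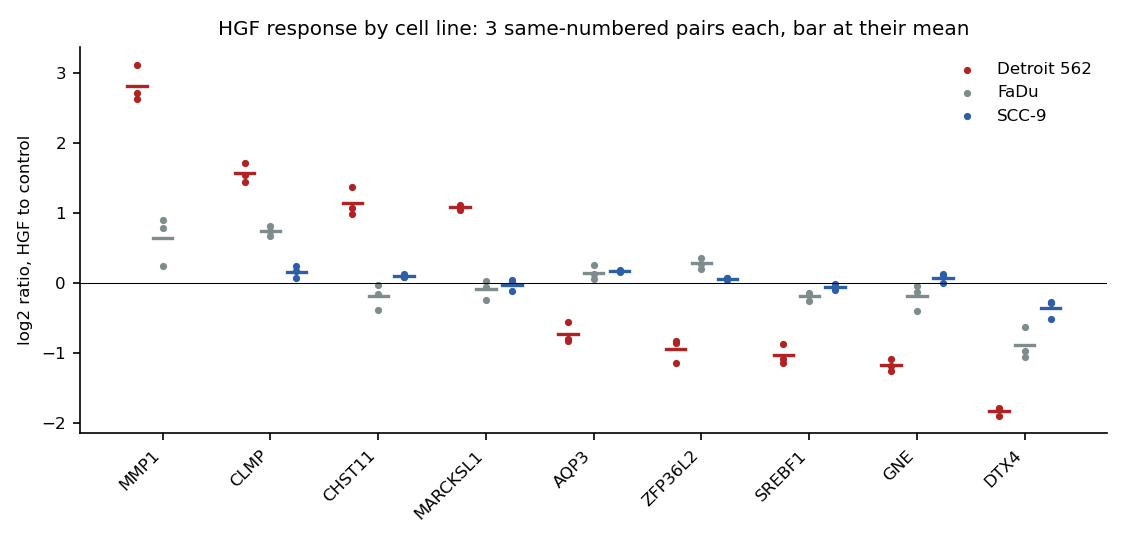
Log2 ratio of HGF to control (vertical axis) in the 3 same-numbered pairs of Detroit 562, FaDu and SCC-9 for 9 of the 10 genes with the smallest adjusted p for a difference from FaDu or SCC-9, with bars at the mean of 3 pairs. MMP1 in SCC-9 is left out because it had under 1 CPM there. The Detroit 562 points lie farther from 0 than those of the other lines in each gene shown. The genes were chosen for a call in Detroit 562 and for this difference, which favors such a pattern.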

How the data were processed

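Per the submitters' processing notes and the methods, the authors removed adapters (Cutadapt 1.16), mapped reads to GRCh38.p12 with GENCODE 28 annotation (STAR 2.5.2b) and obtained read counts per gene with bedtools, from reads that overlap the gene's annotation entry on its strand. The deposited values are raw counts, without normalization, and a read in a same-strand overlap was counted for each gene. Of the table's 19901 rows, 18 are pseudoautosomal copies.

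The counts as deposited entered edgeR 4.0.16 (R 4.3.3), where filterByExpr on the 6 groups left 15475 genes, 1412 of them below the filter on Detroit 562 alone. After TMM normalization a quasi-likelihood model was fitted to all 18 libraries, with 1 HGF effect per line and, within each line, a term for every replicate number (the replicate block). Log2 fold changes are given with their standard error (SE), and adjusted p values are Benjamini-Hochberg values over all genes tested. Genes were called at the thresholds of the study's methods. Pair ratios are differences of log2 CPM with a prior count of 2. With 3 libraries against 3 an exact permutation test of 1 gene that ignores the pairs cannot give a p below 0.1. With the pairs kept, the smallest possible p is higher.

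The block was used because the experiment was repeated and same-numbered libraries deviated from their group means together, with correlations across genes of 0.295, 0.161 and 0.454. The mean for different numbers was -0.144. Deviations of 3 libraries from their own mean sum to 0, so this mean follows largely from the same-numbered values and is no separate baseline. In FaDu and SCC-9 the same-numbered correlations were 0.376, 0.441 and 0.563 and 0.332, 0.203 and 0.286. In Detroit 562, HGF 2 correlated more with control 1 (0.218) than with control 2. Settings tried were the fit without the block, a block shared by the lines, the Detroit 562 libraries alone, other size factors, other filters, overlapping genes left out, DESeq2 1.42.0 with its prior and with the block, other thresholds, and each pair left out. The fits were tested on simulated counts.

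Genes named singly were the 12 largest rises and falls, the 8 smallest adjusted p and the 6 largest CPM differences in each direction, the 4 called genes with the most different pairs, the 5 genes with the smallest adjusted p for the difference from each other line, and members of lists. A few of the genes that this rule names are not reported here, and counts over all genes and over lists include them. The gene lists and members were chosen with earlier results of these data known, and lists are described by counts and medians without a set test. Promoters were matched for 74.6% of the genes called up and 70.6% of those called down, under 80%, so a comparison of promoter content between them is void and not given. For the ribosome biogenesis genes, of which 85.0% were matched, motif shares are given as a description only.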

Additional observations from a re-analysis of the deposited data

Results flagged for a closer look

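The difference in response to HGF between Detroit 562 and another line, tested as the difference of the fitted log2 fold changes in the edgeR fit with the replicate block, passed an adjusted p of 0.1 in 2956 genes for FaDu and in 4170 genes for SCC-9. Both counts use the same Detroit 562 libraries.

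The genes with the smallest adjusted p for the difference from FaDu come first. As Detroit 562 minus FaDu, it was 2.19 for MMP1, 1.33 for CHST11, 1.17 for MARCKSL1, -0.87 for AQP3 and -1.22 for ZFP36L2. Others with the smallest adjusted p for the difference from SCC-9 had, as Detroit 562 minus SCC-9, differences of 1.40 for CLMP, -1.25 for GNE, -0.97 for SREBF1 and -1.47 for DTX4.

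Few genes called in 2 lines went opposite ways, 11 of 606 called in Detroit 562 and FaDu and 5 of 222 called in Detroit 562 and SCC-9. Among these opposite calls, 6 genes had a mean of at least 5 CPM and a difference that passed an adjusted p of 0.1. All but CXCL1 are named for this after their values were seen. Their differences and adjusted p values are from the fit with the replicate block, on which the count of such differences rested. The chemokine CXCL1 had a log2 fold change of -0.69 in Detroit 562 and 0.44 in FaDu, a difference of -1.13 (adjusted p = 6.44e-05). PLEKHG4B fell in Detroit 562 and rose in FaDu, with a difference of -1.79 (adjusted p = 2.81e-04), and AHNAK2 had -0.47 and 0.46, a difference of -0.93 (adjusted p = 0.0107). ESAM and SCARF2 rose in Detroit 562 and fell in FaDu, with differences of 1.79 (adjusted p = 0.00507) and 1.72 (adjusted p = 7.85e-04). SCARF2 overlaps another gene on its strand. SLFN11 had -0.46 in Detroit 562 and 1.92 in SCC-9, a difference of -2.37 (adjusted p = 0.0056). Without the replicate block CXCL1, AHNAK2 and SLFN11 were not called in Detroit 562 (adjusted p = 0.106, 0.374 and 0.287). With pair 1 left out AHNAK2 and SLFN11 changed by -0.36 and -0.37, under the minimum for a call, and neither was called with a block shared by the lines (adjusted p = 0.255 and 0.232). SLFN11 was not called in DESeq2 with the block either (adjusted p = 0.492).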

How the results depend on the processing

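Detroit 562 counts kept within 1.5 times the reported 1104 genes up and 2223 down in all settings but the changes of threshold. With no minimum fold change 4063 rose and 4228 fell, and with an adjusted p below 0.05 and a log2 change of at least 1, 181 rose and 563 fell. With each pair left out in turn 945 to 1185 rose and 1935 to 2238 fell. No replicate block gave 954 and 1812, and DESeq2 with its prior 913 and 1813. Other scaling moved the median of all genes by less than 0.02 (log2). The difference in response rested on the block. Against FaDu 37 genes passed with no replicate block, 240 with a block shared by the lines and 268 in DESeq2 with its prior, and against SCC-9 143, 803 and 650. With each pair left out these counts were 2028 to 3323 and 3422 to 4263. The cause was not tested. Of the genes named, 217 in all, 9 lost their call without the block and 9, 2 and 1 without pair 1, 2 and 3. In DESeq2 with its prior 11 lost it, with a block shared by the lines 7, and at the stricter thresholds 98. The direction of each gene was the same in the settings run. Depth limits genes under 1 CPM, where 150 rises and 379 falls were called.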
